A study of Mus musculus with 8 samples.

Results

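The genes described here are 37 members of the machinery that degrades and recycles cell material: 12 of autophagy, 13 of the lysosome and 12 subunits of the vacuolar proton pump, the V-ATPase. They were chosen by name, though with earlier results of these data known, and all 37 were found among the 54837 genes of the count table. RNA was sequenced from basal cells of the mammary gland of untreated C57BL/B6 mice, sorted into G0, where cells rest without dividing, and G1, where dividing cells grow ahead of copying their DNA. There were 4 runs with 1 library per phase, 8 libraries in all, holding 5868728 to 15014104 counts. The ages of the mice, the gates of the sort and whether a run was a separate animal are not given in the labels, and the p-values therefore reflect only how these libraries vary, which may be technical.

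Autophagy encloses cytoplasm in a double membrane, the autophagosome, which then fuses with the lysosome. The kinase ULK1 and the BECN1 lipid kinase complex start the membrane, a conjugation system built around ATG7, ATG5 and ATG12 attaches ubiquitin-like proteins of the LC3 and GABARAP family to it, and receptors such as p62, encoded by Sqstm1, bring in the cargo. Lysosomal proteases and glycosidases digest the contents at an acid pH that the V-ATPase maintains. That pump has a membrane sector, V0, and a catalytic sector in the cytoplasm, V1. The factors TFEB and TFE3 switch on many of these genes, and growth signalling by mTORC1 on the lysosome surface holds them in the cytoplasm.

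None of the 37 members passed the test between G0 and G1. With the phase alone in the edgeR model, 0 members had an adjusted p under 0.05 and 0 an unadjusted p under 0.05, where 0% of the 15192 tested genes were called and 425 had an unadjusted p under 0.05. With the run added as a replicate block, 0 members were again called, against 1.24% of tested genes (189), 0.481% higher and 0.764% lower in G1. At an unadjusted p under 0.05 in that fit there was 1, Atp6v1g1, while 6.58% of tested genes were higher and 5.69% lower in G1 at that level. DESeq2 and limma-voom also called 0 members with or without the block, and had the same 1 at an unadjusted p under 0.05 with it. Below, log2 fold changes compare G1 with G0 in the blocked fit, ± standard error, with p adjusted over all tested genes by Benjamini-Hochberg. CPM are counts scaled to library size with TMM factors.

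In the blocked fit the fold changes were small and their intervals narrow. Standard errors were larger without the block, at 0.32 against 0.11 for Atp6v1f, 0.29 against 0.17 for Ulk1 and 0.34 against 0.23 for Gla. The interval counts below therefore hold only given the block. They ran from -0.30 for Hexa to 0.30 for Atp6v1g1. The 95% interval stayed within 2-fold in either direction for all 37 members and within 1.5-fold for 33. The 4 others were Ulk1, Hexa, Gla and Atp6v1c1, and the outermost bounds were -0.74 for Gla and 0.59 for Atp6v1c1. Of the 37, 4 were higher in G1 in all 4 runs (Map1lc3b, Atp6v0d1, Atp6v0e and Atp6v1d), which is 10.8% against 11.3% of tested genes. In all 4 runs 2 members were lower (Atg7 and Hexa), 5.41% against 9.46%. Neither share was above that of the whole table.

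**Figure D1:**
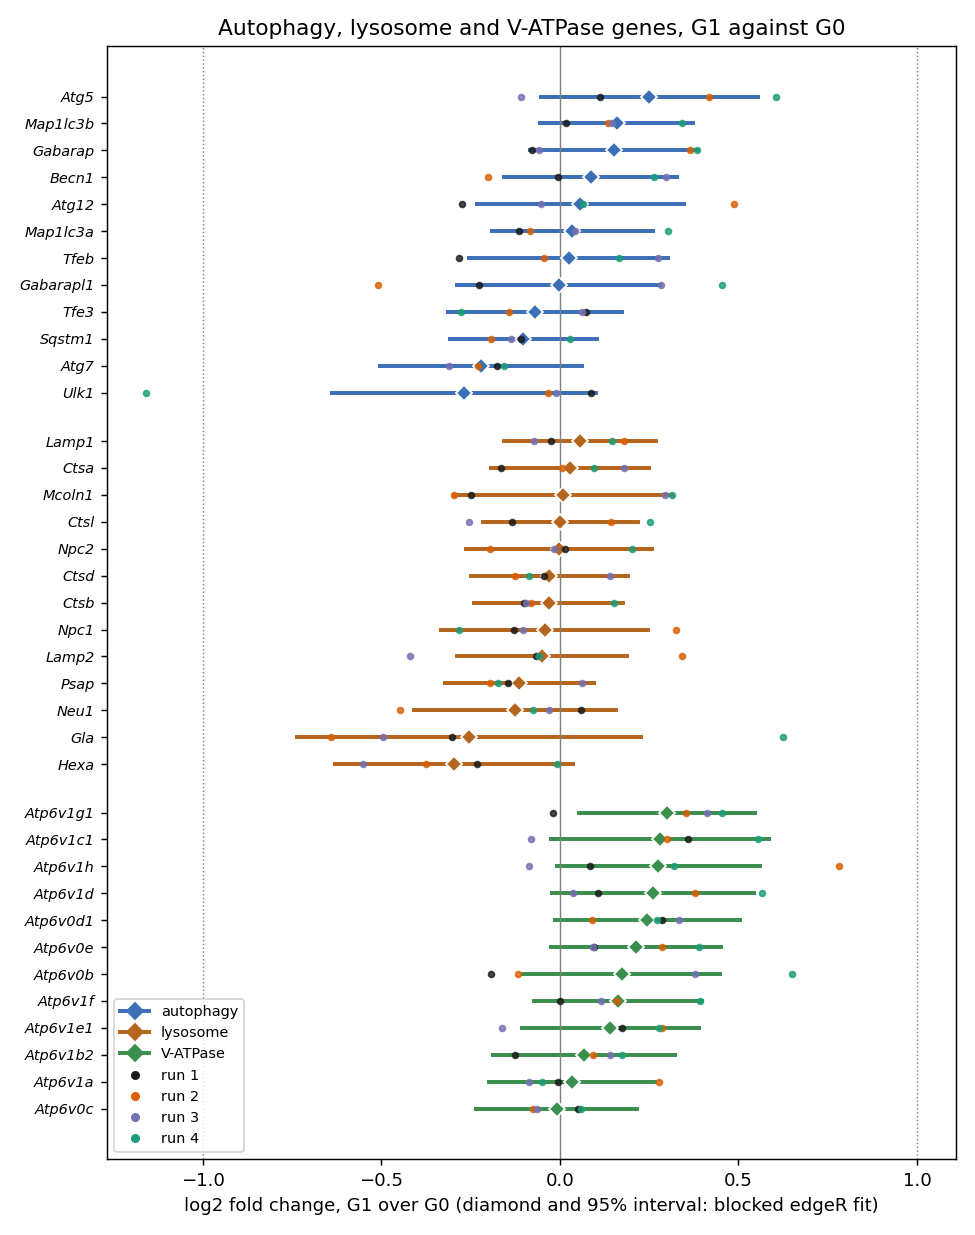
Log2 fold change of each of the 37 members, G1 over G0, by class. Diamonds and bars give the blocked edgeR estimate and its 95% interval, and small points the log2 ratio within each run; dotted lines mark 2-fold. Every bar lies inside the dotted lines, and the V-ATPase subunits sit mostly to the right of 0.

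By class, the V-ATPase subunits had the highest median and the lysosomal genes the lowest. The median log2 fold change was 0.19 over the 12 V-ATPase subunits, 0.03 over the 12 autophagy genes and -0.03 over the 13 lysosomal genes, beside 0.01 over all tested genes. Of the V-ATPase subunits 11 of 12 had a positive fold change, of the autophagy genes 7 of 12 and of the lysosomal genes 4 of 13, while 51.1% of all tested genes were positive. The V-ATPase median equals a ratio of 1.14. By run it was 0.07, 0.28, 0.07 and 0.35 in runs 1 to 4, so the larger values came from runs 2 and 4. Without run 4 it was 0.12, and in the fit without the block it was 0.10 without the G0 library of run 4 and 0.29 without that of run 3. The autophagy medians by run were -0.09, -0.06, 0.02 and 0.22, and the lysosomal ones -0.13, -0.13, -0.07 and 0.10. Run 4 gave the highest median in each class. Its G0 library had the fewest counts of the 8 and counts on 39094 genes, against 20836 to 26614 in the others.

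**Figure D2:**
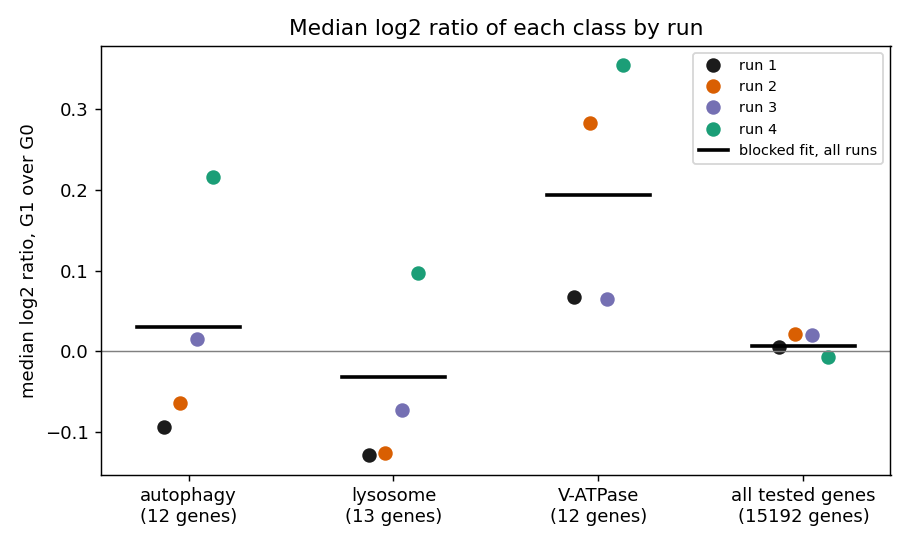
Median log2 ratio of G1 over G0 for each class and for all tested genes, by run (points), with the median of the blocked fit (bars). The V-ATPase medians were above 0 in all 4 runs, from 0.07 to 0.35, while those of autophagy and lysosomal genes lay on both sides of 0.

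The members varied between runs as well as between phases. The range of a member's log2 CPM over the 4 runs, averaged over both phases, had a median of 0.54, against a median absolute difference between phases of 0.10. The range over runs was the larger in 36 of the 37 members, and in 94.7% of all tested genes. A range over 4 means of 2 libraries tends to exceed a difference of 2 means of 4 libraries even where neither has an effect, so this count describes the values and ranks neither source. The exception was Atp6v0d1. Atp6v0c, which encodes the proteolipid of the V0 ring, and Atp6v1f, the small F subunit of the V1 stalk, ranged most, by 1.22 and 1.21. Atp6v0c stood at 99.9, 166, 242 and 128 CPM in the G0 libraries of runs 1 to 4 and 103, 158, 231 and 134 CPM in the G1 libraries. Each run thus had nearly the same level in both phases, with run 3 the highest and run 1 the lowest. Gabarap, of the LC3 and GABARAP family, showed a like spread, at 299, 176, 432 and 223 CPM in G0 and 283, 227, 415 and 291 CPM in G1.

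The sorted cells carried the markers of basal epithelium. The 10 basal markers, keratins, p63, contractile genes and integrins, summed to 23062 to 30284 CPM in G0 and 32010 to 35831 CPM in G1, and none was at 0. The 10 endothelial markers summed to 159 to 277 CPM in G0 and 26.6 to 115 CPM in G1, 12 myeloid ones to 30.1 to 109 and 31.8 to 77.1 CPM, 8 fibroblast ones to 208 to 904 and 243 to 609 CPM and 9 luminal ones to 1909 to 3306 and 2005 to 2877 CPM. Pericyte markers summed to 24.8 to 55.2 and 16.9 to 30.5 CPM, adipocyte markers to 149.8 to 432 and 30.3 to 208 CPM, and lymphocyte markers to 0 to 20.01 and 0.307 to 5.38 CPM, with 6 of the latter 7 genes under 1 CPM on average. With the block, 10 of 10 endothelial, 4 of 8 fibroblast and 1 of 3 tested adipocyte markers were called lower in G1. Called higher were 2 of 10 basal ones, the contractile genes Acta2 and Cnn1, with log2 fold changes of 0.63 and 0.55. Acta2 gave most of the higher basal sum in G1, with a mean of 12213 CPM there against 7926 CPM in G0. Myh11, Oxtr and Krt17 had 0.32, 0.21 and 0.19, and were not called. Krt5 and Krt14 had 0.05 each, Itga6 0.01, Trp63 -0.01 and Itgb4 -0.17. The sum therefore does not show that basal markers in general were higher in G1. Of the 8 fibroblast markers 7 had negative fold changes and 1, Dcn, a positive one, 0.58 ± 0.16 (adjusted p = 0.0973). The fibroblast sums by run were 208, 300, 904 and 308 CPM in G0 and 243, 320, 609 and 445 CPM in G1. Only run 3 was lower in G1. The endothelial sums did not overlap between the phases, and the part of these other cells in the values of the members was not tested. In bulk RNA, fewer cells of a type and less RNA per cell cannot be told apart.

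The members differed widely in level. Per kilobase of annotated exon, Psap, the precursor of the saposins that help degrade sphingolipids, was highest in G0, at 349 CPM per kb, followed by Sqstm1 at 339. Then came Map1lc3a at 243, the cysteine protease cathepsin L (Ctsl) at 236 and the membrane glycoprotein Lamp1 at 235, which were close to each other. Cathepsin B (Ctsb) stood at 179, Gabarap at 153 and the aspartic protease cathepsin D (Ctsd) at 134. At the low end were the cholesterol exporter Npc1, at 3.63, and alpha-galactosidase, Gla, at 2.93. In G1 the values were 321 for Psap and 2.48 for Gla. These lengths count every annotated exon, used in these cells or not, so genes with long unused exons are understated.

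**Figure D3:**
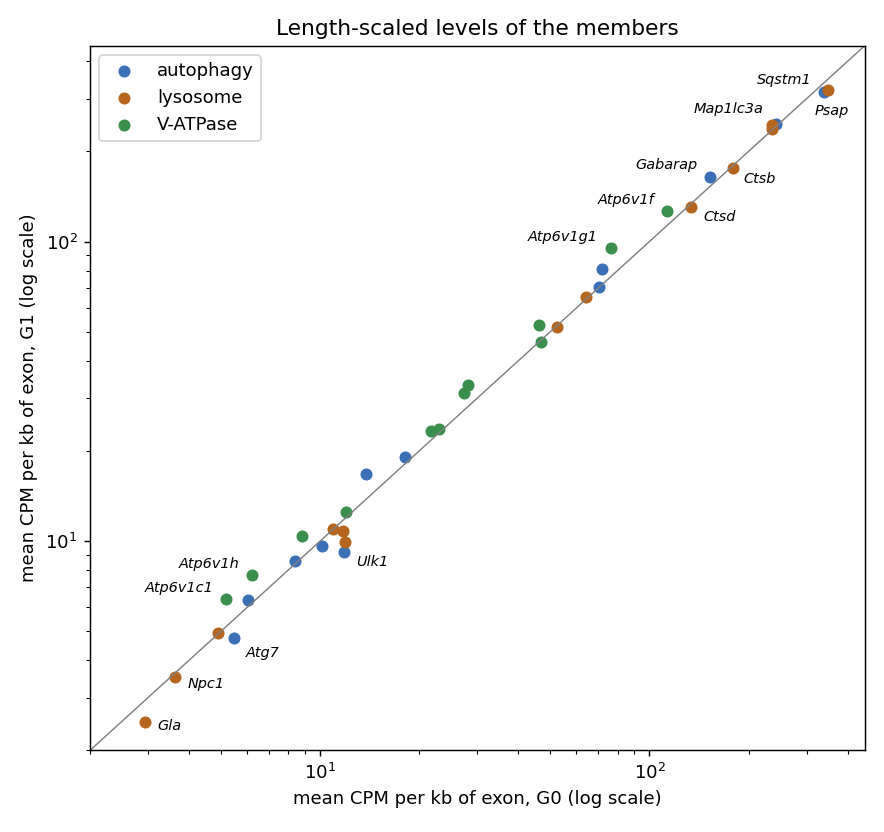
Mean CPM per kb of exon in G0 and G1 for each member, both on log scales, coloured by class; the line marks equal levels. All members lie near the line, from Gla at 2.93 in G0 and 2.48 in G1 to Psap at 349 in G0 and 321 in G1.

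Many lysosomal promoters carry the palindrome bound by TFEB and TFE3, and the members were searched for it. RefSeq promoters on GRCm38.p6, from 250 bases before to 50 after a start site, were found for 28 of the 37 members (35 promoters). The full 10-letter CLEAR element was in none of them, and in 0.326% of all 32851 promoters, or 0.37% of the 27025 genes they belong to. Its inner 8 letters, TCACGTGA, were in a promoter of 7 of the 28 members, against 1.12% of all genes (0.974% of promoters). The core CACGTG, which lies within both, was in a promoter of 12 members, against 8.09% of genes (7.15% of promoters). Each of the 3 motifs reads the same on both strands. The 7 were Atp6v0d1, Atp6v0e and Atp6v1a of the pump, Ctsa, Ctsd and Gla of the hydrolases and the lysosomal channel Mcoln1. For Atp6v0d1 the bases after this start site were not found in a GENCODE M21 transcript of the gene, so its start site is less certain. Stretches around the match are shown because these genes, alike in this element, include both subunits whose G1 values were higher in every run and hydrolases whose values were not. Capitals mark TCACGTGA, and the sequences run 5′ to 3′ along the gene.
Atp6v0d1, chr8:105566055-105566144, minus strand: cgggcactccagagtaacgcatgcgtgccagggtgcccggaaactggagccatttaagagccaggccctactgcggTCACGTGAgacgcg
Atp6v0e, chr17:26676326-26676415, plus strand: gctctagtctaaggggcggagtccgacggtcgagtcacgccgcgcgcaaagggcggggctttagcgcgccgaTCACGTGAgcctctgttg
Atp6v1a, chr16:44139350-44139429, minus strand: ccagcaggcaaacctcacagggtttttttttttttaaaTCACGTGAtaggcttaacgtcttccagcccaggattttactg
Ctsd, chr7:142387888-142387967, minus strand: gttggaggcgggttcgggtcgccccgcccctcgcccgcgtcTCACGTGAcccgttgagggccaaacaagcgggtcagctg
Mcoln1, chr8:3500429-3500508, plus strand: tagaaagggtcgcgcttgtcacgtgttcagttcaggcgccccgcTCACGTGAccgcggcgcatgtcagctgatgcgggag
Ctsa, chr2:164833703-164833792, plus strand: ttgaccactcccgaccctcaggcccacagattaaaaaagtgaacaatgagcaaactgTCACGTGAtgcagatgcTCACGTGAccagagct
Gla, chrX:134601176-134601255, minus strand: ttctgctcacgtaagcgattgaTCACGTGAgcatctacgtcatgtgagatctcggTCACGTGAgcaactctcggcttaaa
In Ctsa and Gla the 8 letters occurred at 2 places each. Those of Ctsa lay in the promoter at its downstream start site, and its other promoter held none. The 7 genes had log2 fold changes from -0.25 (Gla) to 0.25 (Atp6v0d1), with a median of 0.03, and the 21 matched members without the letters from -0.30 to 0.26, with a median of -0.0022. Members with the motif therefore spanned nearly the same range as those without it. A match of letters is a description of the sequence, and no binding was measured.

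The factors themselves had fold changes near 0. Tfeb stood at 55.8, 46.3, 52.5 and 35.4 CPM in the G0 libraries of runs 1 to 4 and 45.8, 44.9, 63.5 and 39.7 CPM in G1, with an estimate of 0.02 ± 0.14 (adjusted p = 0.967). Tfe3 stood at 96.1, 95.3, 81.1 and 102 CPM in G0 and 101, 86.3, 84.6 and 84.0 CPM in G1, with -0.07 ± 0.12 (adjusted p = 0.875). The groups overlapped for both genes. Their activity depends on where the proteins are in the cell, which RNA counts do not show.

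Of the genes that start the autophagosome, Ulk1 had the most negative fold change of the autophagy class, and run 4 gave nearly all of it. It stood at 50.5, 50.7, 80.7 and 124 CPM in the G0 libraries of runs 1 to 4 and 53.7, 49.6, 80.1 and 55.3 CPM in the G1 libraries. The G0 library of run 4 was the highest, and in the other 3 runs the phases were almost level. The log2 fold change was -0.27 ± 0.17 (adjusted p = 0.592), with a 95% interval of -0.64 to 0.10, and 0.0049 without run 4. Becn1, the scaffold of the lipid kinase complex, had 0.09 ± 0.12 (adjusted p = 0.834), and 2 runs lay on each side of 0. The opposite-strand gene Cntd1 overlaps its exons and stood at 61.3 CPM, against 131 CPM for Becn1.

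The genes of the conjugation system had values on both sides of 0. Atg5, one partner of the conjugate that helps attach LC3 to the membrane, stood at 38.5, 32.7, 30.3 and 28.6 CPM in G0 and 41.6, 43.7, 28.1 and 43.6 CPM in G1. It was higher in G1 in 3 runs and lower in run 3, and the blocked estimate was 0.25 ± 0.15 (adjusted p = 0.527). Atg7, the enzyme that activates ATG12 and the LC3 proteins, stood at 39.8, 46.1, 32.6 and 34.5 CPM in G0 and 35.2, 39.3, 26.2 and 30.9 CPM in G1. It was lower in G1 in all 4 runs, though the groups overlapped, and had -0.22 ± 0.14 (adjusted p = 0.561). Atg12, the partner of Atg5, had 0.06 ± 0.14 (adjusted p = 0.917), with G1 values of 44.3, 65.5, 43.1 and 43.0 CPM. Atg5 and Atg7 thus had opposite signs, and neither passed the test.

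Of the LC3 and GABARAP family, Map1lc3b, which encodes the LC3B protein followed in most autophagy assays, had the highest CPM and was higher in G1 in every run. It stood at 426, 565, 594 and 569.6 CPM in G0 and 431, 619, 657 and 723 CPM in G1, the first run being level, with an estimate of 0.16 ± 0.10 (adjusted p = 0.584). Per kilobase of exon, Map1lc3b stood at 71.6 CPM per kb in G0, below Map1lc3a at 243 and Gabarap at 153 and beside Gabarapl1 at 70.2. Gabarap had 0.15 ± 0.11 (adjusted p = 0.648), Map1lc3a 0.04 ± 0.11 (adjusted p = 0.940) and Gabarapl1 -0.00 ± 0.14 (adjusted p = 0.997). Gabarapl1 was lower in G1 in runs 1 and 2 and higher in runs 3 and 4. An antisense transcript, 1700101I11Rik, overlaps its exons at 36.3 CPM, and whether the counting used strand is not stated. Sqstm1, whose p62 protein is itself consumed by autophagy, averaged 1138 ± 88.2 in the G0 and 1063 ± 116 CPM in the G1 libraries (n = 4 each, ± SD). Its log2 fold change was -0.10 ± 0.10 (adjusted p = 0.753), with 3 runs slightly lower in G1 and run 4 level.

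Of the lysosomal hydrolases, the 4 proteases were abundant, with fold changes near 0. Ctsl averaged 1533 ± 206 in the G0 and 1541 ± 249 CPM in the G1 libraries, with a log2 fold change of 0.00 ± 0.11, and Ctsb 1084 ± 204 in the G0 and 1063 ± 208 CPM in the G1 libraries (n = 4 each, ± SD), with -0.03 ± 0.10. Ctsd had -0.03 ± 0.11 and Ctsa, the protective protein of neuraminidase and beta-galactosidase, 0.03 ± 0.11; the 4 adjusted p were 0.941 or more. The 95% interval of Ctsl ran from -0.22 to 0.22. Pltp, on the opposite strand, shares exon sequence with Ctsa and stood at 386 CPM against 305 CPM.

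The 3 glycosidases all had negative fold changes at lower levels. Hexa, the alpha subunit of beta-hexosaminidase, stood at 22.4, 22.7, 23.0 and 27.2 CPM in G0 and 19.1, 17.5, 15.6 and 27.0 CPM in G1. Runs 1 to 3 were lower in G1 and run 4 was nearly level and high in both phases, so the groups overlapped, and the log2 fold change was -0.30 ± 0.16 (adjusted p = 0.479). Gla stood at 13.1, 7.87, 12.0 and 5.36 CPM in G0 and 10.6, 4.98, 8.47 and 8.37 CPM in G1. It was lower in G1 in 3 runs and higher in run 4, on 30 to 170 counts per library, and had -0.25 ± 0.23 (adjusted p = 0.730). Neu1, neuraminidase, stood at 37.4, 46.4, 43.1 and 48.8 CPM in G0 and 39.0, 34.0, 42.2 and 46.3 CPM in G1, with -0.12 ± 0.14 (adjusted p = 0.788), and only run 2 differed by more than a few CPM.

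Psap stood at 971, 1055, 803 and 1001 CPM in G0 and 878, 922, 838 and 887 CPM in G1. It was lower in G1 in 3 runs and slightly higher in run 3, and its log2 fold change was -0.11 ± 0.10 (adjusted p = 0.720). The membrane glycoproteins Lamp1 and Lamp2, which line the lysosome and serve as its markers, had 0.06 ± 0.10 (adjusted p = 0.880) and -0.05 ± 0.12 (adjusted p = 0.911). Lamp2 was higher in G1 in run 2, by 0.34, and lower in run 3, by a log2 ratio of -0.42. The cholesterol transporters had -0.04 ± 0.14 (adjusted p = 0.944) for Npc1 and -0.00 ± 0.13 (adjusted p = 0.997) for Npc2, and the calcium channel Mcoln1 0.01 ± 0.15 (adjusted p = 0.991). Mcoln1 stood at 39.9, 40.3, 34.3 and 32.9 CPM in G0 and 33.6, 32.7, 42.1 and 40.9 CPM in G1, lower in G1 in runs 1 and 2 and higher in runs 3 and 4. Npc1 shares exon sequence with Rmc1 on the opposite strand, at 35.9 CPM against 40.4 CPM, and Lamp1 with Grtp1, at 147 against 642 CPM.

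Of the V0 subunits, 3 of 4 had positive fold changes. Atp6v0d1 (ENSMUSG00000013160, chromosome 8 from 105524465 to 105566047 on the minus strand), which couples the ring to the stalk, was the 1 member whose groups did not overlap, a pattern seen in 2% of all tested genes. It stood at 52.5, 53.8, 43.9 and 50.9 CPM in G0 and 64.0, 57.3, 55.3 and 61.5 CPM in G1. Every G1 library was above every G0 library, and the log2 ratio by run was 0.09 to 0.33, with an estimate of 0.25 ± 0.13 (adjusted p = 0.444). Atp6v0e had 0.21 ± 0.12 (adjusted p = 0.474) and was higher in G1 in all 4 runs. Atp6v0b had 0.17 ± 0.13 (adjusted p = 0.664), lower in runs 1 and 2 and higher in runs 3 and 4, and overlaps the antisense gene Gm12841, at 30.3 CPM against 102 CPM. Atp6v0c had -0.01 ± 0.11 (adjusted p = 0.988); its processed pseudogene Atp6v0c-ps2 held 6.06 CPM, so reads could be split between them.

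All 8 V1 subunits had positive fold changes, none past the test. Atp6v1g1 (ENSMUSG00000039105, chromosome 4 from 63544772 to 63550750 on the plus strand), a peripheral stalk subunit, stood at 86.6, 79.6, 93.3 and 87.0 CPM in G0 and 85.4, 102, 124 and 119 CPM in G1. Runs 2 to 4 were higher in G1 and run 1 was level, with an estimate of 0.30 ± 0.12 (adjusted p = 0.275) and a 95% interval of 0.05 to 0.55. That was the smallest p of the 37 members and the only interval that left out 0. Atp6v1h, a regulatory subunit that links the sectors, stood at 79.0, 57.5, 53.2 and 52.9 CPM in G0 and 83.8, 99.0, 50.1 and 66.0 CPM in G1. Run 2 gave most of its difference and run 3 was slightly lower, with 0.28 ± 0.14 (adjusted p = 0.427), and 0.11 without run 2. Atp6v1d, of the central rotor, stood at 47.9, 32.6, 55.0 and 27.2 CPM in G0 and 51.7, 42.4, 56.5 and 40.3 CPM in G1, higher in G1 in every run by amounts from 0.04 to 0.57 in log2 ratio, with 0.26 ± 0.14 (adjusted p = 0.460).

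The other 5 V1 subunits were Atp6v1c1, Atp6v1f, Atp6v1e1, Atp6v1b2 and Atp6v1a. Atp6v1c1, another stalk subunit, had 0.28 ± 0.15 (adjusted p = 0.462) and was lower in run 3 alone. Atp6v1f had 0.16 ± 0.11 (adjusted p = 0.613) and the stalk subunit Atp6v1e1 0.14 ± 0.12 (adjusted p = 0.702). The subunits of the catalytic ring were nearest to 0, Atp6v1a, which hydrolyses ATP, at 0.03 ± 0.11 (adjusted p = 0.942) and its partner Atp6v1b2 at 0.07 ± 0.12 (adjusted p = 0.880). Summed over the 12 subunits, V-ATPase RNA stood at 1011, 954, 1253 and 916 CPM in the G0 libraries of runs 1 to 4 and 1040, 1100, 1328 and 1114 CPM in G1. Each run was higher in G1, and the groups overlapped, with run 3 high in both phases.

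**Figure D4:**
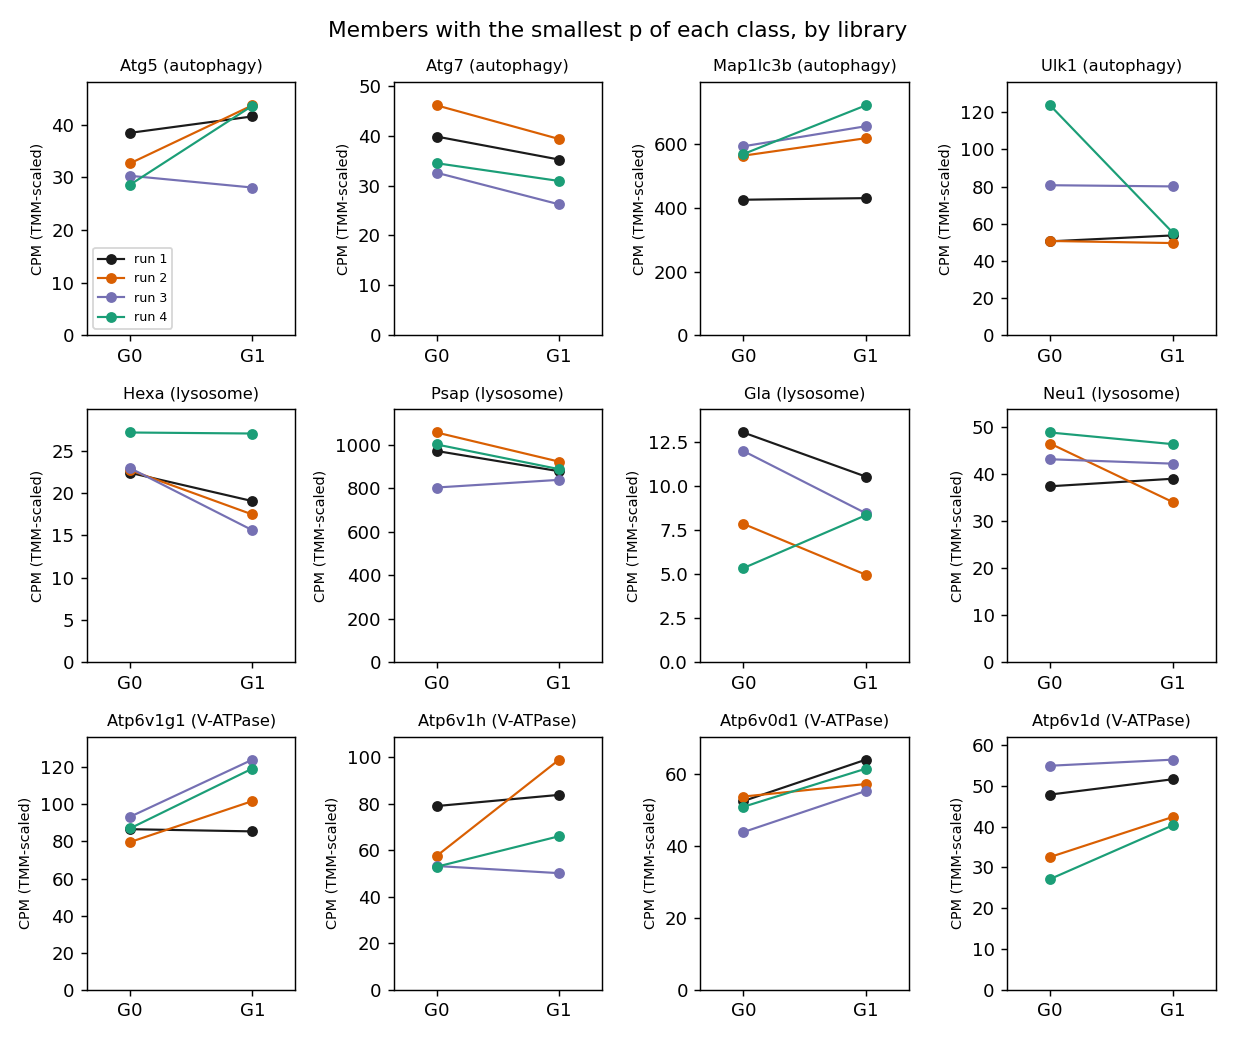
CPM in each library for the 4 members of each class with the smallest p, with lines joining the G0 and G1 library of a run; each vertical axis starts at 0. The G0 library of run 4 stands apart for Ulk1, and Atp6v0d1 has every G1 library above every G0 library.

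Other genes of the same pathways were listed beside the members. Of 32 further autophagy genes, all tested, 0 were called in either fit and 13 lay above 0, the median being -0.05. At an unadjusted p under 0.05 there were 3 with the block, 1 of them positive, and 1 without it. Epg5, a tether for fusion with the lysosome, had -0.65 ± 0.24 (adjusted p = 0.237), Ambra1, a regulator of the BECN1 complex, -0.39 ± 0.15 (adjusted p = 0.243) and Vmp1, an endoplasmic reticulum protein needed for autophagosome formation, 0.24 ± 0.12 (adjusted p = 0.401). Ambra1 was lower in G1 and Vmp1 higher in all 4 runs. Of 51 further lysosomal genes, all tested, 0 were called, 25 were positive and the median was -0.00014. The 3 at an unadjusted p under 0.05 with the block were beta-mannosidase, Manba, at -0.77 ± 0.28 (adjusted p = 0.218), and the mannose 6-phosphate receptors M6pr and Igf2r, which carry hydrolases to the lysosome, at 0.29 ± 0.12 (adjusted p = 0.275) and -0.33 ± 0.15 (adjusted p = 0.388). M6pr and Igf2r thus leaned in opposite directions, though both differed most in run 4 and Igf2r was higher in G1 in run 2. None of the 51 had an unadjusted p under 0.05 without the block, and DESeq2 and limma-voom called 0 in these lists.

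Of 14 further V-ATPase subunits and accessory genes 9 could be tested, 0 were called, and 2 were positive, with a median of -0.13. The 11 of 12 positive among the members did not therefore extend to this list; the difference between the lists was not tested. Atp6v1b1, the kidney form of the B subunit, had -0.83 ± 0.32 (adjusted p = 0.259) and Atp6v1c2, a tissue-restricted C subunit, 0.52 ± 0.22 (adjusted p = 0.323). Those were the 2 with an unadjusted p under 0.05 with the block, and there were 0 without it. The third by p was Tcirg1, the a3 subunit of osteoclasts and macrophages, at -0.13 ± 0.15 (adjusted p = 0.795). Of 22 genes that sense nutrients on the lysosome, 21 could be tested, 0 were called and 14 were positive, with a median of 0.07. At an unadjusted p under 0.05 there were 3 with the block and 1, Fnip2, without it. Fnip2, a partner of folliculin, stood at 13.3, 10.5, 9.61 and 17.3 CPM in G0 and 6.31, 8.74, 8.37 and 5.53 CPM in G1. It was lower in G1 in each run, with -0.76 ± 0.24 (adjusted p = 0.138). Rragd, a Rag GTPase that presents TFEB to mTORC1, stood at 8.80, 8.05, 4.80 and 8.93 CPM in G0 and 10.8, 10.7, 8.47 and 16.1 CPM in G1, higher in each run, with 0.58 ± 0.21 (adjusted p = 0.226). Lamtor5, of the Ragulator complex that anchors the Rag GTPases, had 0.33 ± 0.14 (adjusted p = 0.339) and was also higher in each run. DESeq2 and limma-voom called 0 genes of these lists with or without the block.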

How the data were processed

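RNA was measured in 8 libraries, 4 per phase, numbered by the run in their titles. Polyadenylated RNA was made into stranded TruSeq libraries, per the labels. The submitters' processing notes name Trimmomatic 0.35, STAR 2.5.2a and the build mm10. How reads were counted, with or without strand, and on which gene models was not given in the sources used here. As deposited, the values are whole raw counts per Ensembl gene. Symbols and positions are from GENCODE M21 on GRCm38 (mm10), which matched 54808 of 54837 identifiers.

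Counts were tested mainly by quasi-likelihood in edgeR 4.0.16 (R 4.3.3), with TMM scaling, filterByExpr, the phase alone and Benjamini-Hochberg adjustment at 0.05. Deviations from group means correlated at 0.437 to 0.668 between libraries of the same run and at most at 0.0971 between runs. Such deviations cancel within a group, which lowers the values between runs. That the run numbers pair the libraries therefore rests on the same-run values. A fit blocked on run (the replicate block) is given beside the fit of the phase alone. Ratios by run added a prior count of 2. Alternatives were RLE factors, other filters, DESeq2 1.42.0, limma-voom (limma 3.58.1), length and GC offsets and libraries left out. The tests were checked on simulated counts with planted changes of 2-fold or more. No member had an estimate that large, so the check does not cover changes of the size reported here. Counts within a group differed by 24.0 to 109.7 times the sampling noise, and all were kept as separate libraries.

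The members, classes and lists were chosen with earlier results of these data known. Values by library are given for the 4 members of each class with the smallest p in the blocked fit, and of each wider list the 3 smallest p are named. Tfeb, Tfe3, Atp6v0c, Gabarap, Atg12, Becn1, Gabarapl1, Lamp2 and Mcoln1 were also singled out, after their values were seen, as were the isoforms and cathepsins named at the end. Exon overlap on the opposite strand was found for 13 members, 6 of them with a partner above 20% of the member's CPM.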

Additional observations from a re-analysis of the deposited data

Results flagged for a closer look

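Of 74 groups of 4 libraries, 37 members in each of 2 phases, 7 had a library whose gap to the nearest of the others exceeded Dixon's 95% critical value for 4 values; chance flags about 1 in 20. The G1 library of run 3 was low for Atg5, at 28.1 CPM against 41.6 to 43.7 CPM in the other G1 libraries. It was also low for Ctsb, at 754 against 1126 to 1186 CPM. For Atp6v0e that library was high, at 153.9 against 100.04 to 109 CPM, and so was the G0 library of run 3, at 144 against 83.2 to 93.6 CPM. The G1 library of run 2 was high for Atg12, at 65.5 against 43.0 to 44.3 CPM, and that of run 1 for Tfe3, at 101 against 84.0 to 86.3 CPM. The G0 library of run 4 was high for Hexa, at 27.2 against 22.4 to 23.0 CPM. Of the 7, 4 belonged to run 3.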

How the results depend on the processing

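The count of members called was 0 under all 25 settings, and the lowest adjusted p of any member under any of them was 0.151, for Atp6v1h with the replicate block and length and GC offsets. The V-ATPase median was positive under all 25, from 0.0987 without the G0 library of run 4 to 0.292 without that of run 3, with 8 to 12 of 12 subunits positive; the autophagy median ran from -0.0419 to 0.108 and the lysosomal one from -0.0913 to 0.0215, so neither held a sign. Length and GC offsets with the block gave 0.17, 0.08 and 0.02 for the V-ATPase, autophagy and lysosomal medians, and 7 of 13 lysosomal genes positive in place of 4, while the median of all tested genes moved from 0.01 to 0.04, above the lysosomal one. Over the whole table, the count of all genes called was 0 with the phase alone and 189 with the replicate block (73 higher and 116 lower). Without the block it was 87 with no low-count filter and 34 with DESeq2, and 0 with limma-voom, RLE factors, at least 10 counts in all libraries or any 1 library left out. With the block it was 197 with RLE factors, 310 with no filter, 145 with at least 10 counts, 233 with DESeq2, 197 with limma-voom, 270 with length and GC offsets and, with 1 run left out, from 97 without run 4 to 274 without run 1 (153 without run 2 and 217 without run 3); the cause was not tested. The block changed no member's call. With no filter the median of all genes moved to -0.82 without the block and -0.61 with it, over 42494 genes. Depth limits Gla most, at 30 counts in its lowest library.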

Other observations

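Where the V-ATPase has alternative subunits, the widely expressed form was well above the other for the B, G, d, e and E subunits. The C subunits were closer, and the a subunits were shared among several forms. In G0, Atp6v0d1 stood at 28.0 CPM per kb against 0.164 for Atp6v0d2, and Atp6v0e at 27.2 against 1.23 for Atp6v0e2. Atp6v1e1 stood at 21.7 CPM per kb in G0 against 0.0172 for Atp6v1e2. Per kilobase of exon, Atp6v1b2 stood at 12.0 in G0 and 12.5 in G1 CPM per kb and Atp6v1b1 at 2.21 in G0 and 1.05 in G1. Atp6v1g1 stood at 76.3 in G0 and 94.9 in G1 CPM per kb, against 1.51 in G0 and 1.38 in G1 for Atp6v1g2, a form known from neurons. The C subunits were closer, Atp6v1c1 at 5.17 in G0 and 6.39 in G1 and Atp6v1c2 at 3.86 in G0 and 5.27 in G1 CPM per kb. Of the a subunits, which set where the pump resides, Atp6v0a2 was highest, at 10.3 in G0 and 9.57 in G1 CPM per kb, before Tcirg1 at 7.82 in G0 and 7.03 in G1 and Atp6v0a1 at 3.74 in G0 and 3.45 in G1. Atp6v0a4, Atp6v0d2, Atp6v1e2 and Atp6v1g3 had at most 10 counts in any library and were not tested.

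Among the cathepsins outside the members, Ctsz stood at 134 in G0 and 144 in G1 CPM per kb and Ctsf at 20.1 in G0 and 21.4 in G1. Ctss, a protease of antigen-presenting cells, averaged 2.10 ± 1.74 in the G0 and 1.46 ± 1.72 CPM in the G1 libraries, and Ctsk, known from osteoclasts and fibroblasts, 3.55 ± 4.93 in the G0 and 1.92 ± 1.44 CPM in the G1 libraries (n = 4 each, ± SD). Neither passed the test, with estimates of -0.82 ± 0.62 (adjusted p = 0.652) and -0.59 ± 0.70 (adjusted p = 0.804) in the blocked fit. The tetraspanin Cd63 had the highest level per kilobase among the members and pathway lists, at 386 in G0 and 417 in G1 CPM per kb, with 0.12 ± 0.10 (adjusted p = 0.689).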
